A study of Drosophila melanogaster with 8 samples.

Results

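Tubulin genes encode the subunits of microtubules, and 10 of them were followed in RNA from exosomes of Drosophila melanogaster S2 cells and from the cells themselves. They were chosen by gene symbol, as deposited or in current annotation, from a table of 14012 genes in which transcripts had been summed by their CG identifier. All 10 were found, and betaTub97EF, which had no symbol in the deposited table, was matched through its identifier CG4869. There were 4 exosome libraries (polyadenylated exosomal mRNA) and 4 cell libraries (total cellular mRNA), all from S2, an established embryonic line that resembles the phagocytic blood cells of the fly. The labels name no treatment or genotype for either group. Per the submitters' design text the RNA came from 4 separate experiments, without a word on which libraries belong together, so a p-value here sets a difference against library-to-library spread, part of which may be technical.

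Microtubules are hollow polymers of paired alpha- and beta-tubulin, and gamma-tubulin sits in ring complexes that start their growth. Flies carry several isotypes of each kind. Textbook knowledge divides them into 4 genes used in most tissues (alphaTub84B, alphaTub84D, betaTub56D and gammaTub23C) and 6 that are more restricted. Of the latter, alphaTub67C and gammaTub37C are maternal genes of the female germline and betaTub85D serves the male germline and the sperm tail. AlphaTub85E is known from testis and some somatic tissues, betaTub60D from developing muscle and other somatic cells, and betaTub97EF as a further somatic isotype. In the Release 6 annotation alphaTub84B, alphaTub84D, alphaTub85E, betaTub85D and betaTub97EF lie on chromosome arm 3R, alphaTub67C on 3L, betaTub56D and betaTub60D on 2R and both gamma genes on 2L.

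Values are FPKM, fragments per kilobase of transcript and library size, as the authors deposited them, and series of values follow the replicate numbers 1 to 4. The libraries were not on an equal scale, with summed FPKM over all genes from 91304 in exosome replicate 3 to 1140885 in cell replicate 2. Levels are therefore also given as a share of that sum and as a percentile among all genes of the same library. The depth was read from the steps between low values, which gave about 99800 fragments in exosome replicate 2 and 1950000 to 6070000 in the other 5 libraries that showed a step. No step was found in exosome replicate 1 and cell replicate 1, whose depth is unknown. Exosome replicate 1 stood apart, because 64 of the 145 genes with a median of at least 200 FPKM in the other 7 libraries were listed at 0 in it. In every other library at most 2 such genes were listed at 0. Values at 0 in that library are given only as listed. Differences of the tubulin genes are also given without it. Those of the other microtubule genes, and the medians of their lists, all include it. Markers of blood cells were present, with 10 of 10 above an FPKM of 1 in some cell library.

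Tubulin mRNA in S2 cells was mainly of the ubiquitous isotypes, with alphaTub84B and betaTub56D far above the rest. Of the summed tubulin FPKM in cell replicates 1 to 4, alphaTub84B held 47.8%, 56.5%, 48.9% and 55.3%, and betaTub56D held 40.8%, 38.2%, 34.2% and 39.0%. Exosome replicates 2 to 4 had the same leading pair, with 73.6%, 65.8% and 60.7% for alphaTub84B and 19.8%, 26.7% and 35.0% for betaTub56D. AlphaTub84B was the highest tubulin gene and betaTub56D the second in these 7 libraries. In exosome replicate 1 alphaTub84B was listed at 0 and betaTub56D held 93.7%.

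**Figure D1:**
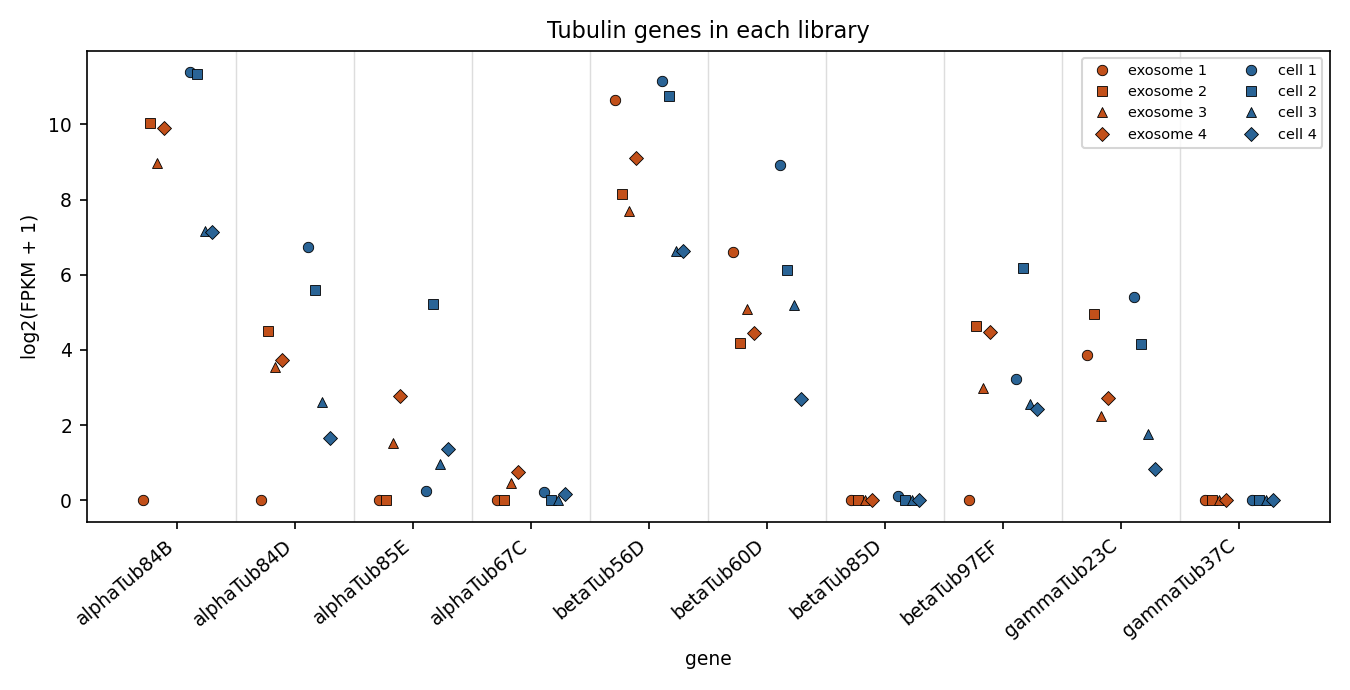
Level of each tubulin gene, as log2(FPKM + 1), in the 4 exosome libraries (orange) and the 4 cell libraries (blue), with 1 symbol per replicate number. AlphaTub84B and betaTub56D lie highest, betaTub85D and gammaTub37C lie at or near 0 in all libraries, and 7 of the 10 genes are listed at 0 in exosome replicate 1.

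AlphaTub84B, the main alpha-tubulin gene of somatic cells, had listed values of 0, 1049, 503.9 and 950.9 FPKM in exosome replicates 1 to 4. In cell replicates 1 to 4 it had 2686, 2574, 141.6 and 140.2 FPKM. The groups overlapped, and cell replicates 1 and 2 were the highest. Its log2 difference, exosome minus cell on the log2(FPKM + 1) scale, was -2.03 (SE 1.92), with a limma adjusted p of 0.748. The difference was 0.38 without exosome replicate 1, so its sign rested on the value listed at 0. Within its library the gene ranked 71, 14 and 83 among all genes for exosome replicates 2 to 4. For the cell replicates its rank was 71, 87, 110 and 78. Exosome replicate 3 thus held its highest rank, and the other 6 of these libraries lay close together. Its values rested on an estimated 162, 1528 and 3030 fragments in the last 3 exosome replicates. In the last 3 cell replicates they rested on 7911, 501 and 1321.

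AlphaTub84D encodes a second ubiquitous alpha-tubulin whose protein is nearly identical to that of alphaTub84B. It was listed at 0, 21.75, 10.73 and 12.25 FPKM across the exosome libraries, while the cell libraries had 105.8, 47.72, 5.075 and 2.129. Cell replicate 1 was the highest and the groups overlapped (log2 difference -1.20, SE 1.43, limma adjusted p = 0.783). Without exosome replicate 1 the difference was -0.22. In exosome replicate 2 the value stood for an estimated 3.86 fragments, against 44.8 in exosome replicate 4. Of the FPKM of this pair of genes, alphaTub84B held 98.0%, 97.9% and 98.7% (exosome replicates 2 to 4) or 96.2%, 98.2%, 96.5% and 98.5% (cells). The means differed by 0.845 percentage points (two-sided exact permutation p = 0.4, with 3 exosome libraries against 4, where the smallest possible p is 0.0571). Both groups thus gave alphaTub84B nearly all of the signal. The authors' counting could have split shared reads between these 2 genes, so the small share of alphaTub84D is uncertain.

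BetaTub56D, the ubiquitous beta-tubulin gene, had 1620, 282.3, 204.6 and 548.3 FPKM across the exosome libraries, while the cell libraries had 2292, 1744, 99.05 and 98.81. It was above 1 FPKM in all 8 libraries, exosome replicate 1 included, and its percentile among all genes of a library was between 99.0 and 99.7. The groups overlapped, with a log2 difference of 0.09 (SE 1.97, limma adjusted p = 0.986). It was -0.49 without exosome replicate 1 and -0.63 without cell replicate 3 or cell replicate 4. Its rank among all genes ran from 49 to 146 over the exosome libraries and from 82 to 139 over the cells, so neither group was ahead throughout.

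The deposited table splits betaTub56D into 4 transcripts, and their shares differed between libraries. Transcript CG9277-RB held 100% of the gene's FPKM in cell replicates 2, 3 and 4 and 44.3% in cell replicate 1. In exosome replicates 2 to 4 it held 72.7%, 74.3% and 87.6%, and in exosome replicate 1 it was listed at 0. The rest went to CG9277-RD for exosome replicates 2 and 3 (27.3% and 25.7%) and for cell replicate 1 (55.7%). It went to CG9277-RC in exosome replicate 4 (12.4%), and to CG9277-RC and CG9277-RD in exosome replicate 1 (76.3% and 23.7%). CG9277-RA was listed at 0 in all 8 libraries. All exosome libraries therefore had some signal outside CG9277-RB, as had 1 of 4 cell libraries. This split was looked at after the values were seen and has no test. CG9277-RC and CG9277-RD have no counterpart of that name in Release 6, and the sources used here do not say how reads were assigned between overlapping transcripts.

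**Figure D2:**
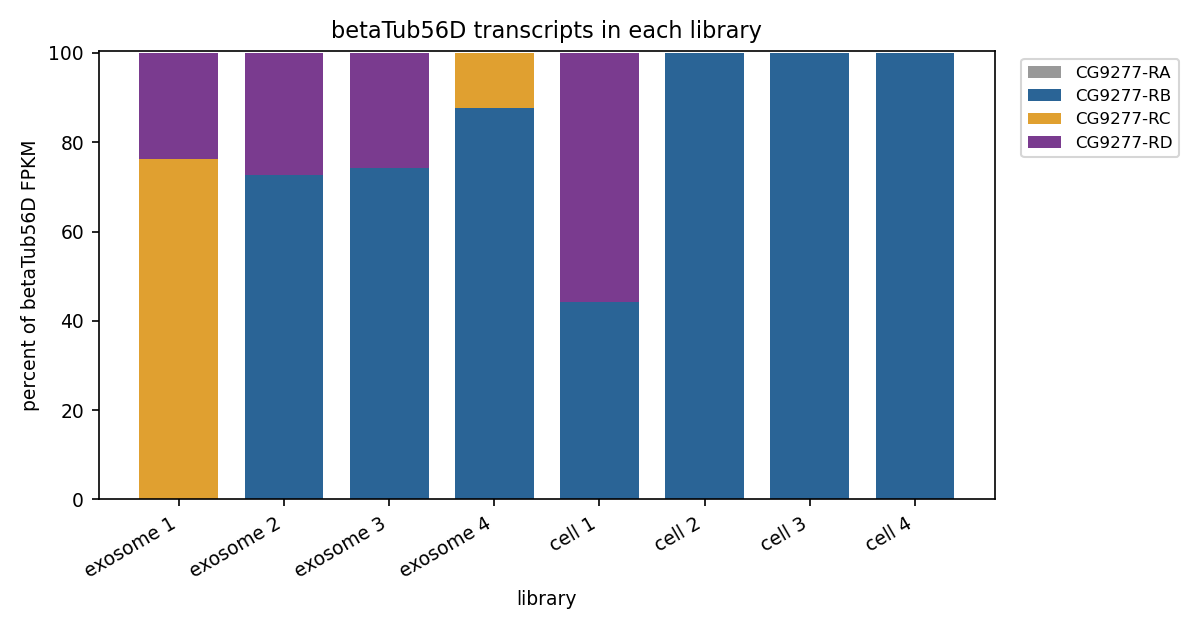
Share of the betaTub56D FPKM held by each deposited transcript, in percent, for the 8 libraries (stacked bars, 1 colour per transcript). Cell replicates 2 to 4 are 100% CG9277-RB, and exosome replicates 2 to 4 are between 72.7% and 87.6%.

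GammaTub23C, the somatic gamma-tubulin gene that nucleates microtubules at centrosomes, was present at a low level in all 8 libraries. It had 13.49, 30.30, 3.713 and 5.592 FPKM across the exosome libraries, while the cell libraries had 41.54, 16.71, 2.375 and 0.7929. Exosome replicate 2 was the highest of the exosome libraries and cell replicate 1 the highest of the cells, and the groups overlapped (log2 difference 0.41, SE 1.40, limma adjusted p = 0.931). It was 0.27 without exosome replicate 1. Leaving out exosome replicate 2 made it -0.10, and leaving out cell replicate 3 or 4 made it -0.02 or -0.33. The exosome replicate 2 value stood for an estimated 4.99 fragments, so its height is imprecise. Its percentile among all genes was 89.3, 93.9, 83.1 and 78.8 over the exosome libraries. Over the cell libraries it was 86.1, 76.4, 72.6 and 69.7. GammaTub23C was 1 of 3 tubulin genes with a value above 0 in exosome replicate 1, with betaTub56D and betaTub60D.

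BetaTub60D was the most abundant of the restricted isotypes in both groups when ranked by median. It had 95.92, 17.22, 33.34 and 20.90 FPKM across the exosome libraries, while the cell libraries had 483.7, 69.09, 35.74 and 5.523. By FPKM, cell replicate 1 was the highest library and cell replicate 4 the lowest, with the exosomes between them. That order did not hold by percentile among all genes of a library. The percentile was 97.0, 90.5, 98.4 and 92.0 over the exosome libraries and 98.7, 91.3, 97.6 and 93.5 over the cells. Cell replicate 1 was again the highest, but exosome replicate 2 was the lowest. The log2 difference of -0.65 (SE 1.65, limma adjusted p = 0.894) was 0.41 without cell replicate 1 and -1.16 without exosome replicate 1. Its share of beta-tubulin FPKM varied more within the cell group than between groups, at 17.4%, 3.67%, 25.6% and 5.08% in cells against 5.59%, 5.33%, 13.6% and 3.54% in exosomes. The replicates numbered 1 and 3 had the higher shares among the cells, and replicate 3 among the exosomes. The value in exosome replicate 2 stood for an estimated 3.98 fragments, and those of the other libraries with a known depth for 77.7 to 317.

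BetaTub97EF was also present in both groups. It was listed at 0, 23.86, 6.855 and 21.42 FPKM across the exosome libraries, while the cell libraries had 8.377, 71.50, 4.936 and 4.385. Cell replicate 2 was the highest and the groups overlapped (log2 difference -0.58, SE 1.41, limma adjusted p = 0.893). The difference was 0.43 without exosome replicate 1 and 0.28 without cell replicate 2. Its percentile in exosome replicates 2 to 4 was 92.5, 90.9 and 92.1, against 61.9, 91.6, 83.6 and 92.0 in the cells. Cell replicate 1, the highest library for betaTub60D, was the lowest of the cells for betaTub97EF by percentile. BetaTub60D was above betaTub97EF in 2 of 4 exosome and 3 of 4 cell libraries, so the order of these neighbours was not fixed.

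AlphaTub85E passed the filter on low values with the fewest libraries, 4 of 8. It was listed at 0, 0, 1.873 and 5.788 FPKM across the exosome libraries, while the cell libraries had 0.1947, 36.46, 0.9633 and 1.589. Cell replicate 2 alone was above 10 FPKM, with an estimated 98.2 fragments, and the other libraries with a value and a known depth had 2.98 to 16.2. The log2 difference was -0.89 (SE 0.95, limma adjusted p = 0.766), or 0.20 without cell replicate 2 and -0.53 without exosome replicate 1. A count of 0 in exosome replicate 2 allows up to 22.1 FPKM (3 fragments, counting error only). By raw FPKM that is more than in any library but cell replicate 2. The scales differ, however, with a summed FPKM of 332170 in exosome replicate 2 and 1140885 in cell replicate 2. A loss from that exosome library was therefore not detectable at its depth.

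The germline isotypes were at or near 0 in both groups. AlphaTub67C had at most 0.6987 FPKM, and where the depth is known its values stood for 1 fragment in exosome replicate 3, 2.03 in exosome replicate 4 and 1.01 in cell replicate 4. BetaTub85D was listed at 0 in 7 libraries and at 0.07158 FPKM in cell replicate 1. GammaTub37C was listed at 0 in all 8. In exosome replicates 3 and 4, and likewise for cell replicates 2 to 4, a count of 0 allows at most 0.374 to 1.16 FPKM of gammaTub37C. In exosome replicate 2 it allows 22.8 FPKM. None of these 3 genes passed the filter, so they were not tested. Markers of the germline were also low or at 0, with 1 exception. Of the male germline genes, 5 of 6 male germline genes were listed at 0 in all 8 libraries, and their sum was 0 in all exosome libraries and at most 0.559 FPKM in cells. The 5 matched female germline genes summed to 7.36 to 26.4 FPKM in exosomes and 0.636 to 15.6 FPKM in cells. Among them bcd and nos were listed at 0 in all libraries. The exception, grk, was above 1 FPKM in 7 libraries, with 16.26, 26.42, 7.071 and 12.57 FPKM across the exosome libraries, while the cell libraries had 8.742, 15.22, 2.590 and 0.5433. The 6 muscle genes summed to 0 to 9.58 FPKM in exosomes and 0.429 to 18.7 FPKM in cells, and Mlc2 was the highest, at 18.55 FPKM in cell replicate 2. The 6 neuronal genes summed to 0.775 to 3.09 FPKM in exosomes and 0.537 to 6.84 FPKM in cells. By FPKM, Mlc2 and alphaTub85E both had their highest value in cell replicate 2, the library with the largest summed FPKM. Per 1000000 of the summed FPKM, the 6 muscle genes together stood at 22.6 in exosome replicate 4 and 16.4 in cell replicate 2. AlphaTub85E stood at 13.7 and 32.0 in these libraries. In exosome replicate 3 it stood at 20.5, where the 6 muscle genes together stood at 5.33. Mlc2 alone was not put on that scale. The part of other cells in these low values was not tested.

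**Figure D3:**
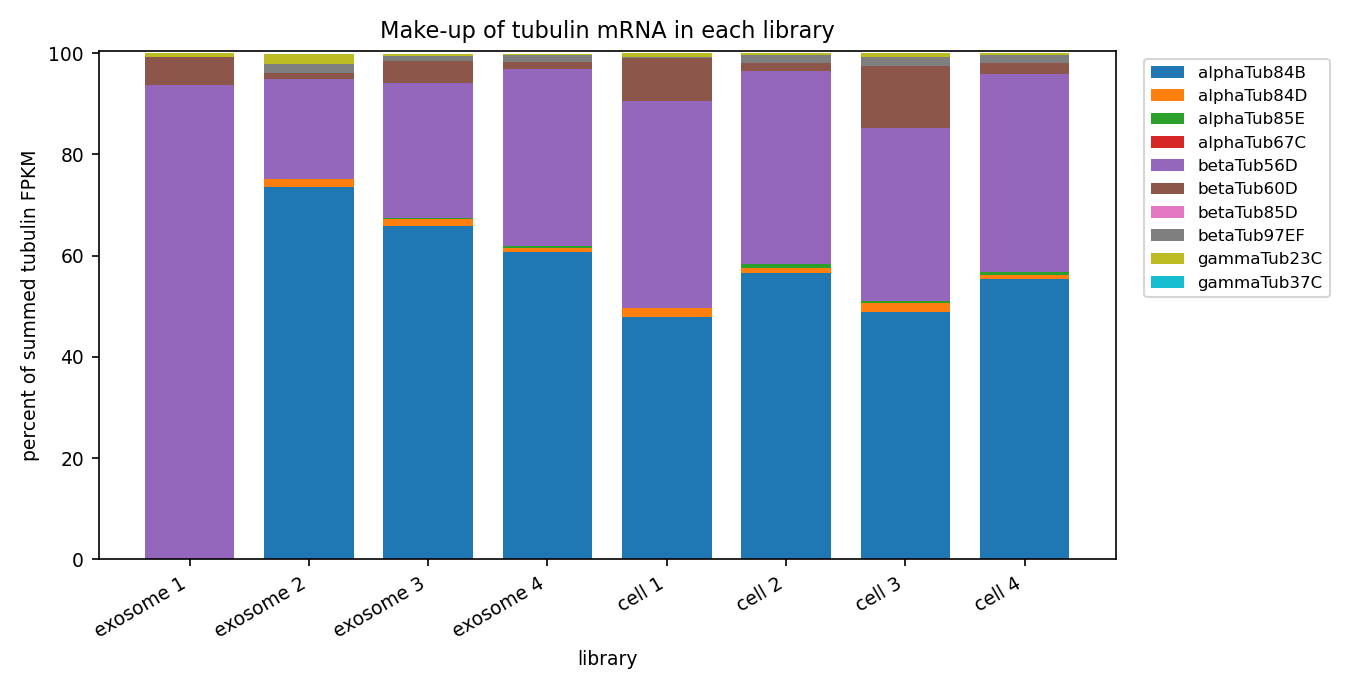
Make-up of tubulin mRNA in each of the 8 libraries, as the percent of the summed FPKM of the 10 genes held by each gene (stacked bars). AlphaTub84B holds 60.7% to 73.6% in exosome replicates 2 to 4 and 47.8% to 56.5% in cells, and is listed at 0 in exosome replicate 1.

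The restricted isotypes together formed a small part of tubulin mRNA in both groups. Their share of the summed tubulin FPKM was 5.55%, 2.89%, 5.54% and 3.12% in exosomes and 8.77%, 3.88%, 14.4% and 4.58% in cells. Cell replicates 1 and 3, where betaTub60D was high, had the largest shares, and the groups overlapped. The mean was lower in exosomes by 3.63 percentage points, which did not pass (exact two-sided permutation p = 0.229, or 0.6 adjusted over the 3 shares tested). It was -1.47 points without cell replicate 3 and -4.05 points without exosome replicate 1. With betaTub97EF counted as ubiquitous the difference was -3.32 points.

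Alpha-tubulin genes held 76.8%, 67.9% and 62.1% of alpha plus beta FPKM in exosome replicates 2 to 4, against 50.1%, 58.5%, 51.4% and 57.0% in the cells. These exosome values all lay above the cell values. In exosome replicate 1, where all 4 alpha genes were listed at 0, the share was 0%. With all 8 libraries the means differed by -2.54 percentage points (two-sided exact permutation p = 1, adjusted p = 1). Without exosome replicate 1 the difference was 14.7 points (exact two-sided permutation p = 0.0571, the lowest that 3 against 4 can give). With both replicates numbered 1 left out it was 13.3 points (exact two-sided permutation p = 0.1, the lowest that 3 against 3 can give). The ratio of alphaTub84B to betaTub56D was 3.71, 2.46 and 1.73 for exosome replicates 2 to 4 against 1.17, 1.48, 1.43 and 1.42 for the cells. In exosome replicate 1 it was 0. These 2 genes make up most of the alpha and beta FPKM, so the ratio largely restates the alpha share.

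**Figure D4:**
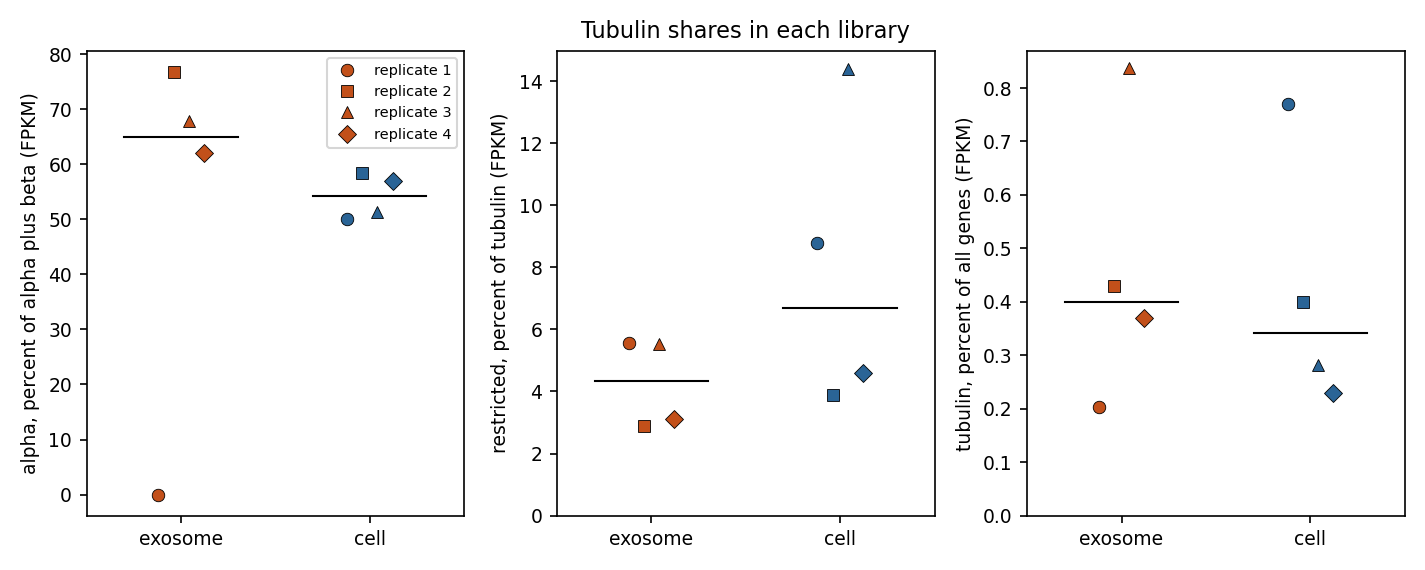
Tubulin shares in each library (points, 1 symbol per replicate number; horizontal lines are group medians), in percent of FPKM. The left panel is the alpha share of alpha plus beta tubulin, the middle panel the restricted isotypes' share of tubulin, and the right panel the tubulin share of all genes. In the left panel exosome replicates 2 to 4 lie above all cells and exosome replicate 1 lies at 0.

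Tubulin as a whole took under 1% of the summed FPKM in every library, and the groups overlapped. The 10 genes held 0.203%, 0.429%, 0.838% and 0.370% of the summed FPKM of all genes in exosomes and 0.770%, 0.400%, 0.282% and 0.229% in cells. The highest and lowest libraries of each group differed by more than the group medians of 0.399% and 0.341%. Since the members were chosen with earlier results known, this sum has no test. The same limit holds for the p-values of the shares above, which are descriptive. In bulk RNA, fewer vesicles or cells with a transcript and less of it in each cannot be told apart.

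Of the 10 genes, 7 passed the filter of an FPKM above 1 in at least 4 libraries, and limma called 0 of them higher and 0 lower. Across all 5868 genes tested it called 0%, so these counts are no result about tubulins. At an unadjusted p under 0.05 limma gave 0 of the 7, against 0.0852% of all genes higher and 4.62% lower. Of the 7 genes, 0 had groups that did not overlap, against 0.0341% of all genes with exosomes higher and 0.75% with exosomes lower. The median log2 difference of the 7 was -0.65, beside -1.01 for all tested genes. Less that median, gammaTub23C stood at 1.41 and betaTub56D at 1.10, betaTub97EF at 0.43, betaTub60D at 0.35 and alphaTub85E at 0.12. AlphaTub84D stood at -0.20 and alphaTub84B at -1.02. Without exosome replicate 1 the median of all tested genes was -0.96 and that of the 7 tubulin genes -0.22. Less that median, betaTub97EF then stood at 1.39, alphaTub84B at 1.34, gammaTub23C at 1.23, alphaTub84D at 0.74, betaTub56D at 0.47, alphaTub85E at 0.43 and betaTub60D at -0.20. With both libraries numbered 1 left out, alphaTub84B stood at 1.57 and alphaTub84D at 1.12. The order of the genes thus changed with exosome replicate 1 left out, as did the sign for alphaTub84B, alphaTub84D and betaTub60D. Of all tested genes, 42.3% were listed at 0 in exosome replicate 1 and 48.9% in exosome replicate 2.

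**Figure D5:**
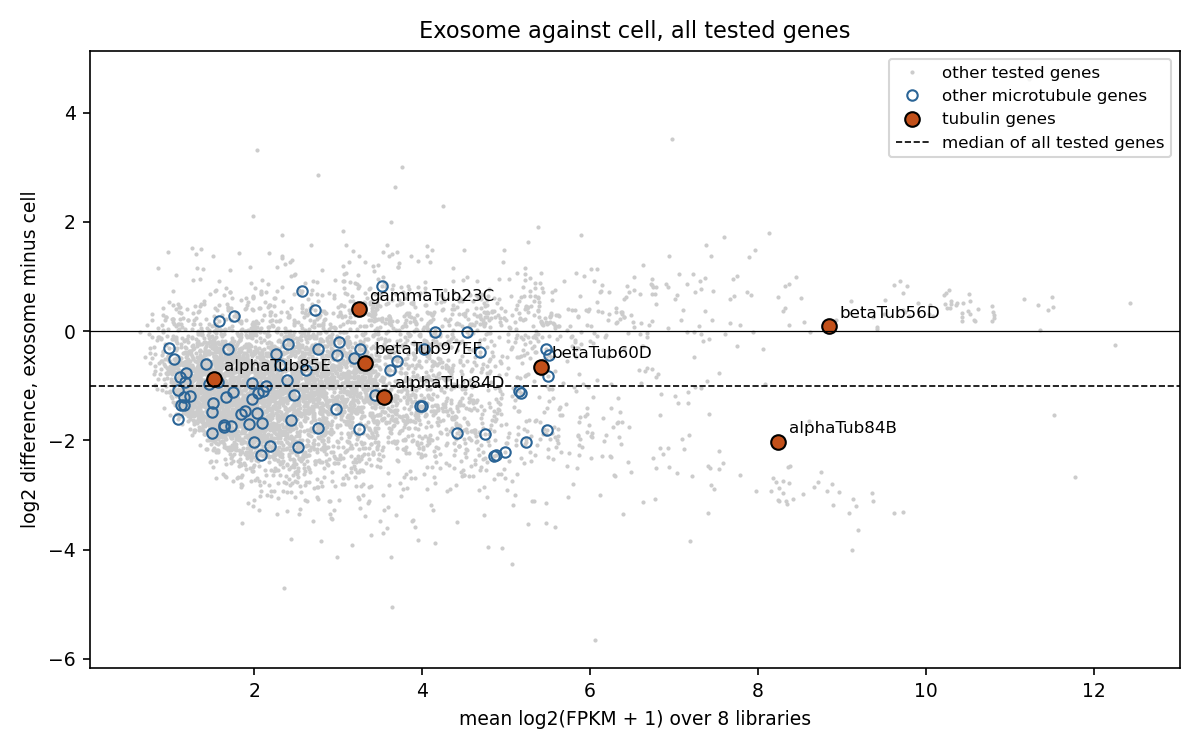
Log2 difference, exosome minus cell, against the mean log2(FPKM + 1) over 8 libraries for the 5868 tested genes (grey), the other microtubule genes (open blue circles) and the 7 tested tubulin genes (orange). The dashed line is the median of all tested genes, -1.01; betaTub56D and gammaTub23C lie above 0 and the other 5 tubulin genes below it.

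Other genes of the microtubule machinery were also not called. Of 97 genes in 6 lists, 78 were tested and limma called 0 higher and 0 lower (0% of all genes), with a lowest adjusted p of 0.708. Before adjustment 0 were higher and 2 lower at p under 0.05, where 4.62% of all tested genes were lower. The latter were HDAC6, a tubulin deacetylase, and spas, a microtubule-severing enzyme, with log2 differences of -1.61 and -1.86. HDAC6 had 0, 0, 1.21 and 0 FPKM across the exosome libraries, against 8.275, 3.985, 1.593 and 0.6182 in the cells. For spas the values were 0, 0, 1.511 and 0.9165 FPKM against 14.48, 10.28, 1.783 and 0.7349. Both were thus listed at 0 in exosome replicates 1 and 2, and the part of depth in these zeros was not tested. With exosome replicate 1 included, the median log2 difference of the 78 was -1.12, beside -1.01 for all tested genes. Of the 78, 35 lay above the median of all tested genes, where 50% of all tested genes lie.

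Genes of the gamma-tubulin ring complex had 4 of 6 members tested and a median log2 difference of -1.40. Grip71, a subunit that targets the ring complex, had 0, 0, 2.215 and 2.308 FPKM across the exosome libraries, while the cell libraries had 16.65, 6.279, 4.389 and 0.9298. Grip84, a core subunit, had 0, 0, 1.111 and 2.741 FPKM across the exosome libraries, while the cell libraries had 15.27, 7.262, 1.722 and 0.3440. All 4 tested ring genes were listed at 0 in both exosome replicates 1 and 2. Grip75 and Grip163, which were not tested, had 3.731 and 0.2875 FPKM in exosome replicate 1 and were listed at 0 in exosome replicate 2. Taken singly, 42.3% of all tested genes were listed at 0 in exosome replicate 1 and 48.9% in exosome replicate 2. The share of all tested genes at 0 in both is not given here. In exosome replicate 2, 1 fragment of a transcript as long as that of gammaTub23C stands for 6.07 FPKM. By raw FPKM that is more than Grip71 or Grip84 had in any exosome library. The scales differ, however, with a summed FPKM of 332170 in exosome replicate 2 and 91304 in exosome replicate 3. The part of depth in these zeros was not tested.

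Folding and modification genes, which include the chaperonin that folds new tubulin, had 18 of 26 members tested and a median of -0.98. The chaperonin gene CCT5 had 104.5, 22.35, 17.18 and 52.41 FPKM across the exosome libraries, while the cell libraries had 201.5, 224.4, 12.16 and 12.09. CCT4, another subunit, had 94.80, 17.48, 22.92 and 30.92 FPKM across the exosome libraries, while the cell libraries had 202.5, 194.2, 21.31 and 13.82. Both overlapped between groups, with log2 differences of -0.43 and -0.82 (limma adjusted p = 0.940 and 0.868). They do not stand for the whole chaperonin. CCT8 also had a value in exosome replicate 1 (124.9 FPKM) and a log2 difference of -0.32. CCT1, CCT2, CCT3, CCT6 and CCT7 were listed at 0 in that library and had log2 differences of -1.86 to -2.29. None of these subunits was called, and their differences without that library are not given here.

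Motor genes also overlapped between groups. Kinesins had 20 of 24 members tested and a median of -1.01. The spindle motor gene ncd had 0, 7.918, 6.503 and 6.795 FPKM across the exosome libraries, while the cell libraries had 187.7, 14.95, 2.408 and 1.644. Klc, the kinesin light chain gene, had 15.41, 36.45, 4.962 and 25.38 FPKM across the exosome libraries, while the cell libraries had 77.24, 46.30, 6.217 and 2.782. For both, cell replicate 1 was the highest and the groups overlapped. Dynein and dynactin genes had 17 of 18 members tested and a median of -1.09. The dynein light chain gene robl had 360.6, 0, 5.988 and 137.2 FPKM across the exosome libraries, while the cell libraries had 131.6, 381.7, 8.327 and 14.08. Dlc90F, also a dynein light chain gene, had 0, 111.5, 19.82 and 137.2 FPKM across the exosome libraries, while the cell libraries had 211.2, 218.6, 59.56 and 16.70.

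Microtubule-associated proteins had 19 of 21 members tested and a median of -1.36. Jupiter, which binds along microtubules, had 0, 52.32, 26.62 and 80.87 FPKM across the exosome libraries, while the cell libraries had 455.5, 175.7, 51.50 and 6.769. Eb1, which tracks growing microtubule ends, had 21.96, 12.83, 14.98 and 49.82 FPKM across the exosome libraries, while the cell libraries had 56.01, 75.97, 18.90 and 7.475. Their log2 differences were -2.02 and -0.38 (limma adjusted p = 0.721 and 0.944). The remaining list held 2 further tubulin family genes, betaTub65B and CG7794, and neither was tested.

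The genes closest to alphaTub84B in percentile over the 8 libraries were Hsc70-4, RpL4, RpL37-1, RpS3 and RpS6. Their mean absolute percentile differences from it ran from 0.0892 to 0.148. Closeness in percentile itself requires a value of 0 in exosome replicate 1, where alphaTub84B is listed at 0, so their zeros there are no finding. The closest to betaTub56D were eEF2, eIF4A, Rack1, Nacalpha and RpLP0, at 0.0562 to 0.194, and their presence in that library is fixed by the choice in the same way. The heat shock cognate gene Hsc70-4 had 0, 487.8, 443.6 and 762.4 FPKM across the exosome libraries, while the cell libraries had 2612, 2297, 269.2 and 179.0. The elongation factor gene eEF2 had 2182, 377.2, 196.4 and 452.2 FPKM across the exosome libraries, while the cell libraries had 2385, 1592, 98.16 and 111.9. This likeness is a description over 8 libraries that differ in depth and scale, and a percentile was used because it does not depend on scale.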

How the data were processed

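Polyadenylated RNA of 4 exosome and 4 cell libraries was sequenced after directional library preparation, per the labels' protocols. The submitters' processing notes name TopHat2, Cufflinks, DESeq2 and the build dm3, without versions or roles. The values the authors deposited per transcript were taken as FPKM, because they are not whole numbers, their totals differ and Cufflinks writes this unit. From these, 21081 transcripts were summed to 14012 genes by CG identifier. Symbols and chromosome arms came from Release 6, and no coordinates are given because the builds differ. Sequences of the genes or proteins were not used here.

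The 5868 genes whose FPKM exceeded 1 in 4 or more libraries entered a fit of log2(FPKM + 1) by limma 3.58.1 (R 4.3.3), exosome against cell, using a mean trend, no block and Benjamini-Hochberg adjustment at 0.05. The fold scale has a pseudocount of 1 and understates the change of low genes. Shares went through an exact two-sided permutation test with 70 splits (scipy 1.17.1), for which the smallest possible p is 0.0286. Fragments were estimated from single-transcript genes longer than 1000 bases with an assumed fragment length of 200 bases. Of their low values, 66.0% to 89.2% lay within 0.15 of a whole number in the 6 libraries with a step, where evenly spread values give 30%. These estimates and floors cover counting error only.

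The members, lists and tests were chosen with earlier results of these data known. The named genes are the 10 members, per list the 2 members with the highest mean FPKM and any called member, and the 5 genes closest in percentile to alphaTub84B and to betaTub56D. HDAC6, spas, betaTub65B, CG7794, Mlc2, NimC1, Hml and the germline markers were named after their values were seen. The same holds for the ring complex and chaperonin genes beyond the 2 per list. A gene that is not a chaperonin was dropped from the folding list because its symbol matches another enzyme. Planned tests of the tubulin share of all genes and of the median percentile are not given, because the members were chosen with results known. The shares that kept a test were chosen with the same knowledge. Their p-values are therefore descriptive, and the adjustment does not cover the planned tests left out. Alternatives were other pseudocounts, filters and scalings, a replicate block, 1 transcript per gene and libraries left out.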

Additional observations from a re-analysis of the deposited data

Results flagged for a closer look

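The median percentile of the 10 tubulin genes among all genes of the library was 33.3 in exosome replicate 1, against 91.2, 87.0 and 83.4 in exosome replicates 2 to 4. Its gap to the nearest of these was 0.864 of the whole range of the group. A percentile of 33.3 is that of every gene listed at 0 in this library, and 7 of the 10 genes were.

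BetaTub85D, the male germline isotype, had 0.07158 FPKM (0.0981 per 1000000 of the summed FPKM) in cell replicate 1 and was listed at 0 in the other 3 cell libraries. The depth of this library is unknown, so the number of fragments behind the value is unknown too. For values without ties at 0, chance flags about 1 in 20 groups of 4, and 29 groups were examined. With 3 values at 0, any value above 0 in the remaining library has a gap of 1 of the range. The betaTub85D flag was thus fixed by its zeros. A group with all 4 values at 0 cannot be flagged, so the rate does not apply to such groups.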

How the results depend on the processing

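In all 17 fits limma called 0 tubulin genes and 0 genes of the microtubule lists. Over all tested genes it called 1 of 5868 in the fit without cell replicate 4 and 0 in every other fit. These counts are therefore no result about tubulin or microtubule genes. The direction of the tubulin genes was not stable. With single libraries left out, the log2 difference ran from -2.96 to 0.38 for alphaTub84B, -1.45 to 0.20 for alphaTub85E, -0.63 to 0.88 for betaTub56D, -1.67 to 0.41 for betaTub60D, -1.12 to 0.43 for betaTub97EF and -0.33 to 1.20 for gammaTub23C. With both libraries numbered 1 left out it turned to 1.09 for alphaTub84B, 0.64 for alphaTub84D and 0.31 for betaTub97EF, and with quantile normalization to 0.36 for betaTub97EF. Less the median of all tested genes, betaTub56D and gammaTub23C stayed above 0 in all 16 alternatives. The median of all tested genes, -1.01, was 0.11 with quantile normalization and -1.19 with each library scaled to the same sum.

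The alpha share difference of -2.54 points ran from -10.9 to 14.7 with single libraries left out and was 13.3 with both libraries numbered 1 left out. With the highest-mean transcript alone the restricted share difference turned to 16.4 points, because that betaTub56D transcript is listed at 0 in exosome replicate 1. Deviations of same-numbered exosome and cell libraries correlated at 0.233, 0.191, 0.452 and -0.0676 for the numbers 1 to 4. Of these pairs 3 were above 0.1, and exosome replicates 1 to 3 correlated best with the cell library of their own number. Exosome replicate 4 correlated best with cell replicate 2 (0.413), so the numbers were not taken as pairs. With a replicate block the restricted share difference stayed at -3.63 points and was negative in 4 of 4 same-numbered pairs (exact permutation within pairs, p = 0.125, the smallest that 4 pairs can give), and unadjusted limma p under 0.05 went from 276 to 168 genes, none of them a tubulin gene. Depth limits the low isotypes most, above all in exosome replicate 2.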
